A study of Homo sapiens with 18 samples.

Results

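The KCN genes encode the pore-forming subunits of human potassium channels together with most of their modifier and accessory subunits, and their expression was followed as human embryonic stem cells were turned into neuroepithelium. Members were all genes whose symbol in the platform annotation starts with KCN and holds no hyphen, which gave 88 of the 19775 genes measured. By role, 59 encode pore-forming subunits, 10 modifier subunits that are silent alone, 17 accessory subunits or regulators, and 2 are non-coding RNAs. The samples were 18 pools of total RNA, 3 in each of 6 groups, each hybridised to a 1-colour Affymetrix expression array. All came from H9, an established human embryonic stem (ES) cell line, so every result below concerns 1 genetic background. ES cells were the starting group, and embryoid bodies, which are suspended cell aggregates, were taken at day 6. Neuroepithelium, the sheet of cells from which the central nervous system forms, was taken at day 10 (labelled primitive in most titles) and at day 17 (labelled definitive). At each of these days a second group had received basic fibroblast growth factor (bFGF, a mitogen of neural precursors) from day 6 onward. The labels give its dose as 20 ug/ml at day 10 and 20 ng/ml at day 17, and which unit holds was not settled here. The other 4 groups carry no treatment in the labels. The ES and day 6 pools are labelled as mixing cells of 3 passages each. Day 6 pools 1 and 2 carry the same passage numbers, 27, 28 and 31, which are also those of ES pool 1. ES pool 3 and day 6 pool 3 share passages 26, 28 and 29, while ES pool 2 has 24, 25 and 26. Nothing in the labels says that the neuroepithelial pools came from separate cultures.

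Potassium channels let potassium ions leave the cell and so set the resting membrane potential and end action potentials. Voltage-gated members open on depolarisation, tandem pore members carry leak current at rest, inward rectifiers hold the membrane near the potassium equilibrium, and a further class opens on internal calcium or sodium. Modifier subunits do not conduct on their own but change the channels they join, and accessory subunits alter gating and transport to the surface. In the nervous system the set of channels a cell makes shapes its resting potential and how fast it can fire.

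The culture stages carried the markers their labels call for. The summed signal of 7 measured pluripotency markers was 27751 to 30405 on the ES arrays and 10656 to 12303 on the untreated day 17 arrays, and 6 of the 7 fell (limma, adjusted p under 0.05). The day 17 sum was mostly SOX2 (mean 6591) and LIN28A (3317), with DPPA4 at 1289. The means of NANOG, LEFTY1, PRDM14 and ZFP42 went from 3203, 1326, 481 and 582 in ES cells to 21.0, 31.5, 10.1 and 6.72. That of 8 neuroepithelial markers was 639.7 to 1408 in ES cells and 19393 to 27814 at untreated day 17, and all 8 rose. Markers of other cells moved too. For 12 neuronal markers the sum was 4713 to 6944 in ES cells, 6075 to 9733 at untreated day 10 and 15651 to 18124 at untreated day 17, and 7 of the 12 rose from ES cells to day 17. In ES cells this sum was mostly TUBB3, with a mean of 4436. For 9 mesenchymal and muscle markers it was 5430 to 6622 in ES cells, 1527 to 1687 at day 6, 7626 to 8593 at untreated day 10 and 13579 to 17776 at untreated day 17. The sum of 7 measured epithelial markers was 13844 to 15928 in ES cells, 12329 to 13668 at day 6, 3807 to 5307 at untreated day 10 and 2261 to 3155 at untreated day 17. The sum of 7 glial markers was 123.5 to 326 on all arrays, with GFAP means of 2.65 to 13.5. In bulk RNA, fewer cells of a type and less RNA per cell cannot be told apart, and what these other cells add to the channel signals was not tested.

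Pool 2 of each of the 4 neuroepithelial groups stood apart. Its array median signal was 48.7 to 50.8 against 25.2 to 32.7 on the other 14 arrays, and the median KCN signal 36.4 to 46.1 against 16.5 to 26.3. The ratio of 3' to 5' control signals was 2.30 to 2.57 on these 4 arrays for ACTB and 1.17 to 2.64 on the others, and for GAPDH 0.876 to 0.933 and 0.937 to 1.24. Of the 88 KCN genes 33 (37.5%) had their highest signal in pool 2 in all 4 neuroepithelial groups, against 20.7% of all genes. The reverse held for 5, namely KCNIP1, KCNJ4, KCNK12, KCNMB4 and KCNQ1OT1, which were lowest in pool 2 each time, or 5.68% against 13.7% of all genes. Whatever lifted the low signals of these arrays was not identified. The counts of called KCN genes, and the KCN changes with alternative fits given below, were also computed without them. No such fit is given for the markers, the other channel genes, the counts of groups that did not overlap or the single probe sets.

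The sequences just before the transcription start of 4 genes are shown first because these genes carry the clearest patterns: KCNK1 and KCNG3 were high in ES cells and at day 6, KCNC1 rose to day 17, and KCNJ13 rose to day 6. The KCNJ13 signals with bFGF at day 17 lay below those without it, but that change did not pass the test (limma, adjusted p 0.102). Each is the 250 bases upstream of the start given by RefSeq on GRCh38.p14, on the strand of the gene: chr1:233613856-233614105 (+) for KCNK1, chr2:42493983-42494232 (-) for KCNG3, chr11:17734531-17734780 (+) for KCNC1 and chr2:232776566-232776815 (-) for KCNJ13. Capitals mark the GC box GGGCGG, the TATA box TATAAA and the CCAAT box CCAAT on either strand, and overlapping matches each count.
KCNK1: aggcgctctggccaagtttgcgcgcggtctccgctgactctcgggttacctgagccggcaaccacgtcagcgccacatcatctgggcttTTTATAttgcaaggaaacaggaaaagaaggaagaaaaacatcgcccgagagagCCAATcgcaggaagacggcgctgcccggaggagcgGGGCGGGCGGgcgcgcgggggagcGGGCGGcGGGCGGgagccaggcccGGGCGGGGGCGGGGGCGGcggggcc
KCNG3: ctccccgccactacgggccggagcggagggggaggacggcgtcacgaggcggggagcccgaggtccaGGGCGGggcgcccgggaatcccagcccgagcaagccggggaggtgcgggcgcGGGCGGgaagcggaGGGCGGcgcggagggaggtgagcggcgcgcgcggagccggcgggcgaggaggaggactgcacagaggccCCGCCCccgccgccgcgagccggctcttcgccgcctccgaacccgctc
KCNC1: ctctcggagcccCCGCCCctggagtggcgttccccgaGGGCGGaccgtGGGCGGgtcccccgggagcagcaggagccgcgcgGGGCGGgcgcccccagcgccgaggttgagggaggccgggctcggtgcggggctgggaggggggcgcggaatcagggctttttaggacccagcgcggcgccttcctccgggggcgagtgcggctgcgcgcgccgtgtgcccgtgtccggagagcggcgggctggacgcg
KCNJ13: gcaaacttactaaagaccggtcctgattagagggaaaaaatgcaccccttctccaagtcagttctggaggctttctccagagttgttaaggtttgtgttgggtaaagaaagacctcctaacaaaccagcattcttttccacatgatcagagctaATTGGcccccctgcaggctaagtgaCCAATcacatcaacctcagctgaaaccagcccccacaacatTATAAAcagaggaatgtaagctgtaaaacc

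The first 3 of these sequences were rich in G and C and the fourth was not. G and C made up 69.2% of the KCNK1 sequence, 80.8% of that of KCNG3 and 79.2% of that of KCNC1, with 30, 40 and 36 CG pairs and 7, 4 and 4 GC box matches. The KCNJ13 sequence had 45.2% G and C, 1 CG pair and 0 GC box matches. A TATA box was matched once in KCNK1 and once in KCNJ13, and the CCAAT box had 1 match in KCNK1 and 2 in KCNJ13, while KCNG3 and KCNC1 had 0 of either. The genes shown that rose, KCNC1 and KCNJ13, thus differed in composition. Of the 88 members, 68 had an entry in the RefSeq promoter table. A GC box was present in 58.8% of them, in 56.0% of 15843 protein-coding genes and in 42.3% of all 27305 genes in the table. The TATA box was present in 8.82%, 9.23% and 11.1% and the CCAAT box in 30.9%, 34.5% and 33.0%. KCN genes thus lay close to protein-coding genes in these shares, and a match is a run of letters, not a bound site.

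Few potassium channel genes gave a strong signal in any group. The signal is the linear intensity of 1 probe set per gene, and 18 KCN genes (20.5%) had a group mean over 100, against 50.2% of all genes. The median of the highest group mean was 43.0 over KCN genes and 101 over all genes. Signals of different probe sets depend on their probes, so their order is not an order of RNA amounts. Of the 18 genes, 13 encode pores, 3 modifiers and 2 accessory subunits. Their highest mean fell in ES cells for 5, at day 6 for 3, at untreated day 10 for 1, at day 10 with bFGF for 1, at untreated day 17 for 6 and at day 17 with bFGF for 2. KCNG1 and KCNK5 lay just over the threshold, with highest means of 122 and 108, and KCNN1 and KCNN3 just under it, with 95.1 and 74.4. The threshold was part of how genes were separated and carries no test. At a threshold of 50 the number was 40, at 200 it was 7, and with the mean of each gene's probe sets in place of the brightest it was 10.

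**Figure D1:**
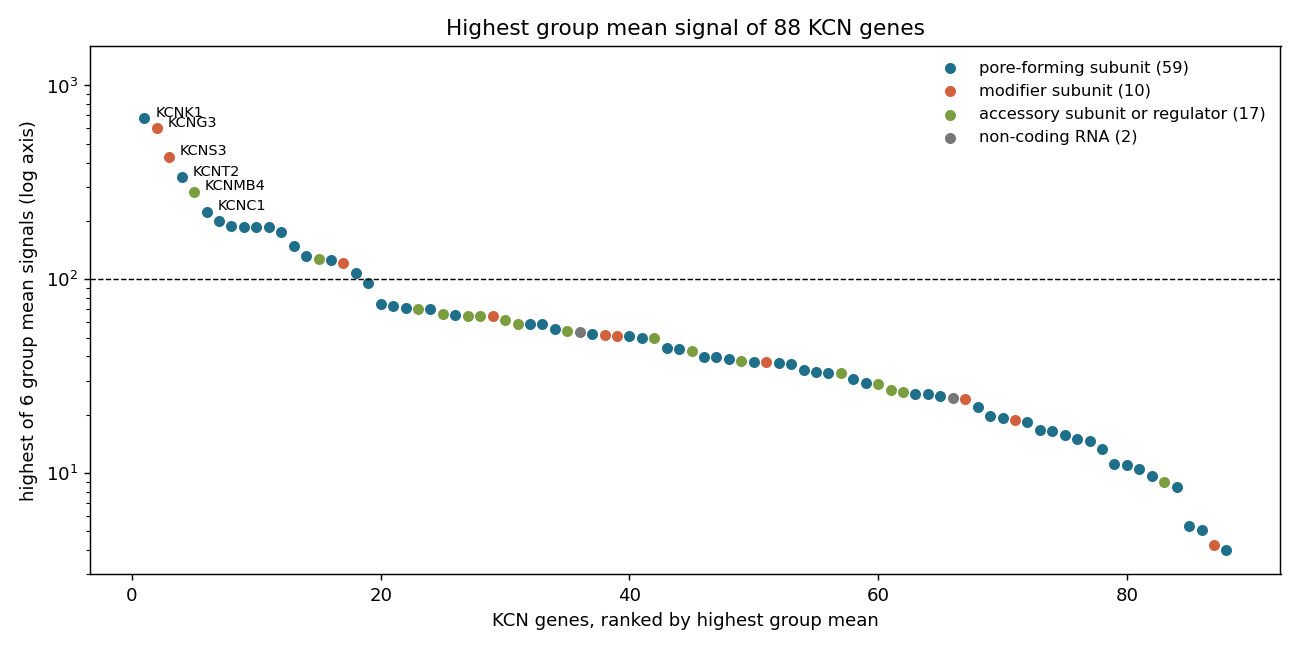
Highest group mean signal (linear intensity, log axis) of each of the 88 KCN genes, ordered from highest to lowest, with the line at 100. The 18 genes over the line reach 676 for KCNK1, and the other 70 lie between 4.02 and 95.1.

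Below, a gene's 3 values in a group are its signals in pools 1, 2 and 3. A change is a difference of group means on the log2(signal + 16) scale, which understates the changes of low genes. Its SE is that of the limma fit, which rests on the spread between pools over all 6 groups, not on the compared groups alone. A change was called where the limma test over all 19775 genes gave an adjusted p under 0.05. Calls are those of the main fit, without a block for pool number, unless another fit is named. Consecutive comparisons share a group of arrays, so their changes are not independent. Alternatives are other fits of the same change, among them those leaving out 1 array of the compared groups.

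Among voltage-gated pores, KCNC1 rose and KCND2 fell. KCNC1, a fast Shaw-type channel that lets neurons fire at high rates, had signals of 1.57, 11.1 and 1.43 in ES cells and 32.8, 14.5 and 12.6 at day 6. They were 225, 133 and 125 at untreated day 10 and 299.98, 194 and 171 at untreated day 17, and with bFGF 176, 81.7 and 96.8 at day 10 and 165, 117 and 124 at day 17. Every neuroepithelial array lay above every ES and day 6 array, and pool 1 was the highest in all 4 neuroepithelial groups. The change was 2.30 ± 0.32 (SE; adjusted p 0.000208) from day 6 to day 10 and 3.52 ± 0.32 (SE; adjusted p 5.6e-07) from ES cells to day 17. Both calls held in all 15 alternatives run for each. Its other probe set gave 1.35 and 1.77 for the same changes and was called in both.

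KCND2, a Shal-type channel of the transient current in dendrites, followed the opposite course. Its signals were 203, 210.1 and 146 in ES cells, 35.7, 68.99 and 27.4 at day 6 and 38.1, 57.6 and 48.7 at untreated day 10. At untreated day 17 they were 24.5, 49.4 and 20.2, and with bFGF 38.4, 37.7 and 55.5 at day 10 and 16.9, 33.7 and 18.4 at day 17. No later array reached the lowest ES array. The fall came by day 6, with a change of -1.80 ± 0.28 (SE; adjusted p 0.00109), and reached -2.13 ± 0.28 (SE; adjusted p 3.86e-05) by day 17. These calls too held in all 15 alternatives run for each. The levels at day 6 and day 10 overlapped.

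KCNA5, a Shaker-type channel of the heart, peaked at day 6 at a low level. Signals were 5.76, 10.5 and 12.99 in ES cells, 48.6, 47.9 and 60.6 at day 6 and 1.22, 3.47 and 1.37 at untreated day 10. Later groups spread more, with 27.5, 16.2 and 4.65 at untreated day 17, 1.32, 7.17 and 4.94 with bFGF at day 10 and 1.29, 36.9 and 11.3 with bFGF at day 17. All 3 day 6 arrays stood above all other arrays. The drop to day 10, -1.92 ± 0.33 (SE; adjusted p 0.00135), was called in all 14 alternatives. The rise to day 6, 1.41 ± 0.33 (SE; adjusted p 0.0209), lost its call in 6 of 14, namely with a pseudocount of 1 and without ES pool 1, ES pool 2 or any 1 of the day 6 pools, and adjusted p spanned 0.00639 to 0.185.

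KCNQ3, a subunit of the M-current that restrains repetitive firing, was brightest at untreated day 17. Its signals were 36.01, 45.2 and 57.3 in ES cells, 36.8, 38.98 and 31.3 at day 6, 66.7, 158 and 34.2 at untreated day 10 and 228, 289.6 and 83.7 at untreated day 17. The bFGF arrays gave 37.9, 68.8 and 68.9 at day 10 and 73.8, 133 and 35.5 at day 17. Pool 2 was the highest of both untreated neuroepithelial groups, and the spread within them was wide. From ES cells to day 17 the change was 1.67 ± 0.46 (SE; adjusted p 0.0164). The call was lost without ES pool 1, day 17 pool 1 or day 17 pool 2 and with the mean of its probe sets, with adjusted p of 0.00362 to 0.115 over 15 alternatives.

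The EAG-related pores differed. KCNH2, the channel of cardiac repolarisation, had signals of 114, 98.7 and 145 in ES cells, 112, 84.5 and 123 at day 6, 96.5, 72.3 and 105 at untreated day 10 and 172, 151 and 123 at untreated day 17. Under bFGF the signals were 88.8, 53.7 and 103 at day 10 and 131, 67.3 and 127 at day 17. Neighbouring groups overlapped save untreated day 10 and day 17, and no comparison called it. KCNH8, a brain channel of the ELK type, had signals of 2.98, 15.3 and 12.1 in ES cells, 1.02, 9.63 and 11.5 at day 6 and 15.1, 34.6 and 26.3 at untreated day 10. They were 37.1, 103 and 55.1 at untreated day 17, and 28.4, 26.4 and 20.9 with bFGF at day 10 and 27.4, 27.3 and 10.1 with bFGF at day 17. Untreated day 17 lay above all ES arrays, and the change of 1.58 ± 0.32 (SE; adjusted p 0.0015) was called in all 14 alternatives.

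Of the modifier subunits, KCNG3 and KCNS3 were lower at day 17 than in ES cells. Both join Shab-type pores and do not conduct alone. KCNG3 signals were 485, 703 and 615 in ES cells, 366, 459 and 413 at day 6, 74.8, 97.2 and 101 at untreated day 10 and 10.9, 19.5 and 25.7 at untreated day 17. In the bFGF groups they were 78.2, 125 and 82.9 at day 10 and 24.1, 37.1 and 13.4 at day 17. The 4 untreated groups did not overlap. KCNG3 changed by -0.51 ± 0.25 (adjusted p 0.411, not called) to day 6, by -2.01 ± 0.25 (SE; adjusted p 8.1e-05) to day 10 and by -1.64 ± 0.25 (SE; adjusted p 0.00178) to day 17, and from ES cells to day 17 by -4.16 ± 0.25 (SE; adjusted p 5.9e-09). The last step lost its call where only the compared groups were fitted (adjusted p 0.000241 to 0.0729 over 15 alternatives), and the other probe set of the gene gave 0.01 for it. That probe set was called lower to day 10 (-1.24) and from ES cells to day 17 (-1.97).

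KCNS3 had signals of 388, 372 and 524 in ES cells, 209.6, 229 and 315 at day 6, 168, 147 and 222 at untreated day 10 and 108, 77.7 and 109 at untreated day 17. They were 161, 99.4 and 210.3 with bFGF at day 10 and 63.2, 68.2 and 99.9 with bFGF at day 17. Pool 3 was the highest in all 6 groups. In the main fit no single step of the untreated course was called. With the pool number as a block, the steps to day 6 and from day 10 to day 17 were called lower. The change from ES cells to day 17, -1.95 ± 0.27 (SE; adjusted p 4.73e-05), was called, in all 15 alternatives as well. KCNG1, the third modifier over 100, showed no called change: its signals were 103, 66.2 and 128 in ES cells, 132, 104 and 130.5 at day 6, 83.8, 153 and 60.9 at untreated day 10 and 84.3, 148 and 122 at untreated day 17. Those with bFGF were 103, 162 and 86.2 at day 10 and 62.8, 113 and 84.9 at day 17, and all groups overlapped the ES arrays.

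**Figure D2:**
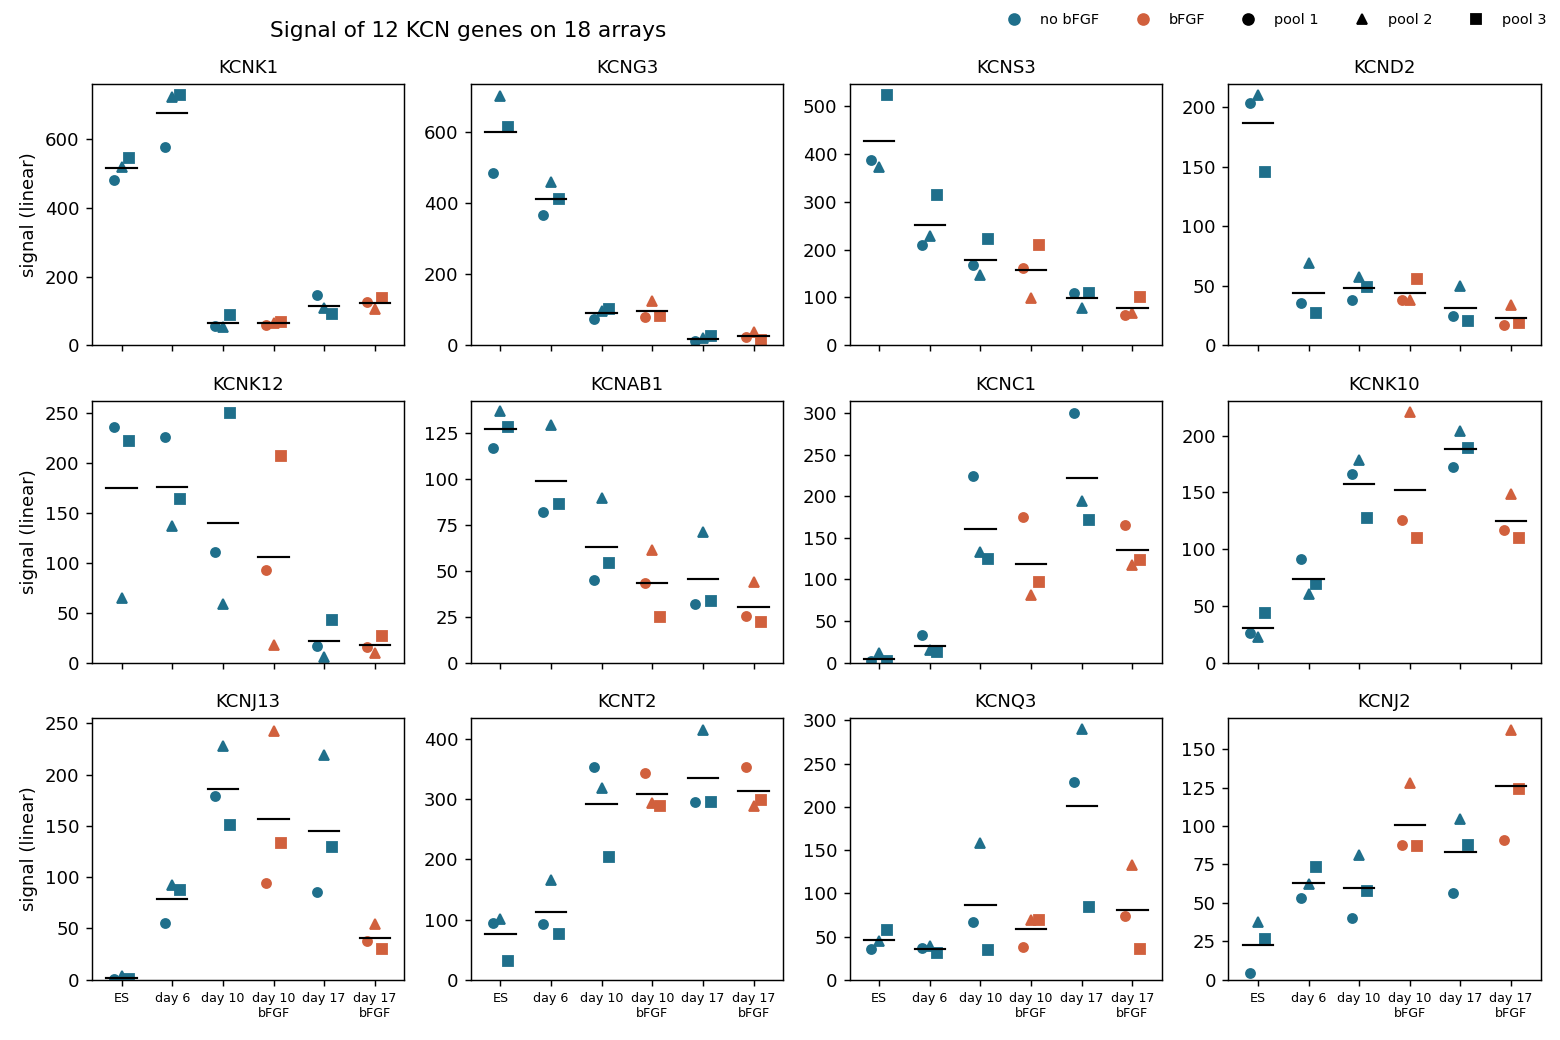
Linear signal of 12 KCN genes on all 18 arrays, by group along the horizontal axis, with 1 point per pool (circle, triangle and square for pools 1, 2 and 3), orange for bFGF and a bar at the group mean. KCNK1, KCNG3, KCNS3 and KCND2 are high in ES cells, while KCNC1, KCNK10, KCNJ13 and KCNT2 are low there and higher at day 10.

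The tandem pore leak genes split by stage. KCNK1, a weakly conducting leak subunit, gave the highest KCN signal of all. Its values were 482, 520.5 and 545 in ES cells, 576, 724 and 728 at day 6, 57.2, 51.8 and 88.1 at untreated day 10 and 146, 109 and 91.5 at untreated day 17. Pools given bFGF had 59.3, 64.6 and 68.6 at day 10 and 127, 106 and 138 at day 17. The lowest day 6 array stood above the highest ES array, and every neuroepithelial array lay far below both groups. The change was -3.10 ± 0.21 (SE; adjusted p 1.83e-07) from day 6 to day 10 and -2.04 ± 0.21 (SE; adjusted p 2.07e-06) from ES cells to day 17, called in all 15 alternatives run for each. From day 10 to day 17 it was 0.69 ± 0.21 (SE; adjusted p 0.13) and not called. Of its 3 other probe sets 2 went the same way to day 10, within -2.45 to 0.21 in all, and 1 of them was called.

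KCNK12, an often silent subunit of the halothane-inhibited type, varied widely between pools. Its signals were 236, 64.5 and 222 in ES cells, 227, 137 and 164 at day 6, 111, 58.3 and 250.1 at untreated day 10 and 16.2, 5.02 and 43.1 at untreated day 17. Arrays of bFGF-treated cells gave 92.3, 17.1 and 207 at day 10 and 15.4, 10.01 and 26.5 at day 17. Pool 2 was the lowest in all 6 groups, and day 17 lay below day 10 in every pool. From ES cells to day 17 the change was -2.31 ± 0.62 (SE; adjusted p 0.014). It lost its call without ES pool 1, ES pool 3 or day 17 pool 2, and adjusted p spanned 0.000148 to 0.0672 over 15 alternatives.

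KCNK10 and KCNK2, leak channels opened by stretch, heat and fatty acids, were higher in neuroepithelium. KCNK10 signals were 25.9, 22.4 and 43.4 in ES cells, 91.04, 60.5 and 69.5 at day 6, 166, 178 and 127 at untreated day 10 and 172, 204 and 189 at untreated day 17. With bFGF they were 126, 221 and 109.95 at day 10 and 117, 149 and 109 at day 17. ES cells, day 6 and untreated day 10 did not overlap, and untreated day 17 overlapped day 10. The change from ES cells to day 17, 2.16 ± 0.25 (SE; adjusted p 8.54e-06), held in all 15 alternatives. The steps to day 6, 0.96 ± 0.25 (SE; adjusted p 0.0426), and to day 10, 0.95 ± 0.25 (SE; adjusted p 0.0295), were called but near the threshold. The first was lost in 7 of 15 alternatives, among them without ES pool 1 or 2 or any 1 of the day 6 pools (adjusted p 0.0212 to 0.193). The second was lost in 8 of 15, among them without day 6 pool 2 or 3, day 10 pool 1 or 2, or the 4 arrays that stood apart (adjusted p 0.0147 to 0.123).

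KCNK2 signals were lower throughout: 3.93, 18.1 and 11.3 in ES cells, 2.06, 1.59 and 8.58 at day 6, 36.3, 22.4 and 37.2 at untreated day 10 and 39.8, 37.9 and 35.02 at untreated day 17. The bFGF arrays gave 34.7, 30.9 and 18.3 at day 10 and 20.4, 60.8 and 30.9 at day 17. Both untreated neuroepithelial groups lay above all ES and day 6 arrays. The change to day 10, 1.26 ± 0.28 (SE; adjusted p 0.00974), was called in all 14 alternatives, and that from ES cells to day 17, 1.02 ± 0.28 (SE; adjusted p 0.0145), in all but 3, which were both forms of quantile scaling and the fit without ES pool 1 (adjusted p 0.0107 to 0.0792). KCNK5, a leak channel opened by alkaline pH, had signals of 137, 84.8 and 100.3 in ES cells, 101, 88.3 and 90.1 at day 6, 69.4, 108 and 105 at untreated day 10 and 61.4, 47.1 and 48.1 at untreated day 17. They were 88.7, 65.5 and 64.4 with bFGF at day 10 and 54.8, 10.5 and 62.8 with bFGF at day 17. Untreated day 17 was below the other untreated groups, with a change from ES cells of -0.84 ± 0.32 (SE; adjusted p 0.0813) that was not called.

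Among inward rectifiers, KCNJ13 had the largest rise. It encodes a channel known from the choroid plexus and the retinal pigment epithelium. Its signals were 0.879, 3.24 and 1.24 in ES cells, 54.96, 92.8 and 87.5 at day 6, 179, 228 and 151 at untreated day 10 and 85.5, 219.6 and 129.7 at untreated day 17. Under bFGF the signals were 94.6, 243 and 133 at day 10 and 37.9, 53.99 and 30.2 at day 17. All ES arrays lay below all later arrays, and the bFGF arrays of day 17 lay below those without it. The change was 2.39 ± 0.33 (SE; adjusted p 0.000299) to day 6 and 3.09 ± 0.33 (SE; adjusted p 3.2e-06) from ES cells to day 17, both called in all 15 alternatives. The step to day 10 was 1.11 ± 0.33 (SE; adjusted p 0.056) and was not called. The other probe set gave 1.34, not called, to day 6 and 2.40, called, to day 17.

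KCNJ4 and KCNJ2, strong inward rectifiers of the same subfamily, both rose. KCNJ4 signals were 44.03, 18.6 and 11.5 in ES cells, 1.59, 19.6 and 8.51 at day 6, 83.8, 36.2 and 150.1 at untreated day 10 and 131, 92.98 and 169.8 at untreated day 17. In the bFGF groups they were 73.8, 22.4 and 96.2 at day 10 and 111, 43.7 and 116 at day 17, and pool 3 was the highest and pool 2 the lowest of every neuroepithelial group. The change from ES cells to day 17, 1.90 ± 0.48 (SE; adjusted p 0.00881), was lost only under quantile scaling, among 15 alternatives (adjusted p 0.000987 to 0.0512). The change from day 6 to day 10, 1.94 ± 0.48 (SE; adjusted p 0.0207), was lost in 6 of 15: under quantile scaling, in the fit of both groups alone and without day 6 pool 1 or 3 or day 10 pool 1 or 3 (adjusted p 0.00133 to 0.106).

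KCNJ2 signals were 4.37, 37.8 and 26.4 in ES cells, 53.1, 62.5 and 73.3 at day 6, 40.4, 80.8 and 57.6 at untreated day 10 and 56.3, 105 and 87.5 at untreated day 17. Those with bFGF were 87.8, 128 and 87.01 at day 10 and 91.2, 162 and 124 at day 17. Every later array lay above the highest ES array. The change from ES cells to day 17, 1.43 ± 0.33 (SE; adjusted p 0.00468), was called in all 15 alternatives. That to day 6 was 1.13 ± 0.33 (SE; adjusted p 0.0762), not called in the main fit but called with the pool number as a block.

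The remaining called inward rectifiers, KCNJ8, KCNJ10 and KCNJ6, were weaker. Among the single comparisons of the main fit they passed the test only between ES cells and day 17. With the pool number as a block KCNJ6 was also called lower to day 6. KCNJ8, a pore of ATP-sensitive channels, had signals of 10.4, 1.17 and 18.3 in ES cells, 4.26, 16.2 and 3.69 at day 6, 24.2, 57.1 and 15.9 at untreated day 10 and 16.2, 105 and 91.01 at untreated day 17, and 1.90, 23.7 and 13.1 with bFGF at day 10 and 21.6, 62.2 and 45.4 with bFGF at day 17. Day 17 pool 1 lay within the ES range. The change of 1.58 ± 0.48 (SE; adjusted p 0.027) was lost in 7 of 14 alternatives, including those without ES pool 1 or 2, day 17 pool 2 or 3, or the 4 arrays that stood apart (adjusted p 0.00164 to 0.128).

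KCNJ10, the main inward rectifier of astrocytes, had signals of 14.8, 18.9 and 24.1 in ES cells, 2.67, 15.8 and 25.03 at day 6, 19.8, 5.60 and 2.99 at untreated day 10 and 1.93, 2.92 and 2.03 at untreated day 17. Pools given bFGF had 3.76, 3.70 and 5.61 at day 10 and 15.5, 8.99 and 11.7 at day 17. All values were low. The change of -0.94 ± 0.27 (SE; adjusted p 0.0199) was lost in 6 of 14 alternatives, including those without ES pool 3, day 17 pool 1 or 3, or the 4 arrays that stood apart (adjusted p 0.00959 to 0.0934). The other probe set of the gene gave -0.098 and was not called.

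KCNJ6, a channel opened by G proteins in neurons, had signals of 49.1, 80.2 and 79.96 in ES cells, 17.2, 38.97 and 17.2 at day 6, 6.12, 27.8 and 15.4 at untreated day 10 and 19.2, 35.4 and 33.9 at untreated day 17. Arrays of bFGF-treated cells gave 20.6, 44.4 and 22.5 at day 10 and 35.4, 48.4 and 25.7 at day 17. Each ES array lay above all later arrays. The change of -0.91 ± 0.30 (SE; adjusted p 0.0434) was lost in 8 of 14 alternatives, including those without ES pool 2 or 3 or any 1 of the day 17 pools (adjusted p 0.000503 to 0.165). The other probe set of the gene gave -0.35 and was not called.

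Of the pores opened by internal ions, KCNT2 was the brightest. This sodium-activated channel had signals of 93.8, 101 and 30.4 in ES cells, 92.9, 166 and 76.1 at day 6, 353, 319 and 203 at untreated day 10 and 296, 415 and 295 at untreated day 17. With bFGF they were 343, 294 and 288 at day 10 and 353, 288 and 299 at day 17. All neuroepithelial arrays lay above all earlier ones. The change from ES cells to day 17, 2.04 ± 0.33 (SE; adjusted p 0.000261), was called in all 15 alternatives, while the other probe set gave 0.32 and was not called. The change from day 6 to day 10, 1.30 ± 0.33 (SE; adjusted p 0.0256), was lost in 7 of 15, among them without day 6 pool 1 or 3, day 10 pool 1 or 2, or the 4 arrays that stood apart (adjusted p 0.00157 to 0.133), and the other probe set gave 1.37 and was called.

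KCNMA1, the pore of the large-conductance calcium-activated channel, had signals of 99.7, 103 and 126 in ES cells, 112, 105 and 84.9 at day 6, 174, 214 and 150.1 at untreated day 10 and 187, 178 and 157 at untreated day 17. The bFGF arrays gave 161, 242 and 152 at day 10 and 95.9, 215 and 160.3 at day 17. Untreated day 10 and day 17 lay above all ES and day 6 arrays, yet the changes of 0.74 ± 0.25 (SE; adjusted p 0.103) to day 10 and 0.60 ± 0.25 (SE; adjusted p 0.111) from ES cells were not called.

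The small-conductance calcium-activated pores KCNN1 and KCNN3 lay just under 100. KCNN1 signals were 104, 66.2 and 45.5 in ES cells, 62.3, 76.1 and 67.9 at day 6, 30.5, 77.3 and 55.5 at untreated day 10 and 46.4, 63.7 and 86.96 at untreated day 17. Under bFGF the signals were 55.7, 157 and 73.1 at day 10 and 44.3, 16.95 and 70.7 at day 17, and the groups overlapped. KCNN3 signals were 8.42, 22.7 and 5.19 in ES cells, 30.2, 21.2 and 13.2 at day 6, 47.98, 13.3 and 6.26 at untreated day 10 and 62.7, 79.1 and 81.3 at untreated day 17. In the bFGF groups they were 54.3, 27.8 and 30.8 at day 10 and 41.6, 72.4 and 28.7 at day 17. Untreated day 17 stood above every untreated array before it. The change from ES cells, 1.73 ± 0.36 (SE; adjusted p 0.00231), was called in all 14 alternatives, and that from day 10, 1.38 ± 0.36 (SE; adjusted p 0.0684), was not called in the main fit.

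Accessory subunits moved in both directions. KCNMB4, the neuronal partner of KCNMA1, had signals of 246, 222 and 265 in ES cells, 215, 145 and 202 at day 6, 161, 148 and 176 at untreated day 10 and 233, 168 and 231 at untreated day 17. Those with bFGF were 186, 161 and 194 at day 10 and 265, 242 and 341 at day 17. Pool 2 was the lowest in all 6 groups, and no change was called. KCNMB3, a further partner of that channel, had signals of 6.57, 24.8 and 5.90 in ES cells, 30.6, 36.8 and 30.6 at day 6, 26.4, 34.1 and 26.3 at untreated day 10 and 21.7, 50.6 and 22.1 at untreated day 17. They were 26.4, 42.2 and 16.5 with bFGF at day 10 and 5.55, 7.44 and 3.07 with bFGF at day 17, where they lay below those without it. In the main fit KCNMB3 passed the F test over the 6 groups (adjusted p 0.0155) but none of the single comparisons. With the pool number as a block it was called higher to day 6 and lower with bFGF at day 17.

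KCNAB1, a cytoplasmic subunit that speeds the inactivation of Shaker-type channels, had signals of 117, 137 and 128 in ES cells, 81.7, 129 and 86.2 at day 6, 44.9, 89.4 and 54.2 at untreated day 10 and 31.8, 70.9 and 33.3 at untreated day 17. Pools given bFGF had 43.5, 61.1 and 24.8 at day 10 and 25.5, 43.96 and 22.05 at day 17. Pool 2 was the highest in all 6 groups. Day 17 lay below all ES arrays, and the change of -1.28 ± 0.30 (SE; adjusted p 0.00521) was called in all 15 alternatives.

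KCNIP1, KCNIP2 and KCNIP3 encode calcium-binding partners of Shal-type channels. KCNIP1 signals were 15.99, 27.1 and 35.4 in ES cells, 28.3, 23.5 and 21.8 at day 6, 66.8, 56.2 and 88.1 at untreated day 10 and 43.9, 37.3 and 73.7 at untreated day 17, and with bFGF 35.3, 20.7 and 61.2 at day 10 and 56.5, 30.5 and 61.1 at day 17. Those of KCNIP2 were 38.2, 53.1 and 54.7, 16.7, 23.2 and 19.5, 50.7, 66.3 and 60.1 and 35.5, 91.4 and 46.6 in the same untreated groups, and 51.4, 38.9 and 57.9 with bFGF at day 10 and 13.2, 58.04 and 29.1 with bFGF at day 17. Both were lowest in mean at day 6 and highest at untreated day 10. Their changes from day 6 to day 10 were 1.08 ± 0.29 (SE; adjusted p 0.0372) and 1.07 ± 0.31 (SE; adjusted p 0.0481). Leaving out any 1 of the 6 arrays compared ended either call, as did 3 further alternatives for KCNIP1 and 5 for KCNIP2, with adjusted p of 0.00471 to 0.293 and 0.0118 to 0.511. Only 1 of the 3 other probe sets of KCNIP2 went the same way.

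KCNIP3 signals were 5.29, 8.64 and 6.76 in ES cells, 35.8, 26.9 and 48.6 at day 6, 54.6, 87.9 and 51.4 at untreated day 10 and 20.2, 81.8 and 48.1 at untreated day 17. Arrays of bFGF-treated cells gave 39.3, 26.4 and 3.68 at day 10 and 9.30, 92.3 and 46.7 at day 17. ES arrays were the lowest of the untreated course. The change of 1.42 ± 0.47 (SE; adjusted p 0.0443) to day 17 was lost in 8 of 14 alternatives, including those without any 1 ES pool, day 17 pool 2 or 3, or the 4 arrays that stood apart (adjusted p 0.0218 to 0.27), and 1 of 4 other probe sets went the same way.

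KCNE3 and KCNE4 encode small single-pass subunits that alter KCNQ-type and other pores. KCNE3 signals were 79.9, 57.3 and 57.1 in ES cells, 41.9, 49.6 and 49.9 at day 6, 20.3, 39.1 and 48.02 at untreated day 10 and 14.6, 6.53 and 3.74 at untreated day 17. With bFGF they were 37.2, 25.4 and 33.9 at day 10 and 15.2, 54.5 and 8.40 at day 17. Untreated day 17 was below the other untreated groups, and the change from ES cells of -1.75 ± 0.32 (SE; adjusted p 0.000824) was called in all 14 alternatives. Its 2 other probe sets, fitted on their own, gave -0.40 and -0.34 for this change, and neither was called.

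KCNE4 alternated at a low level. Its signals were 34.4, 23.05 and 22.7 in ES cells, 5.37, 4.20 and 3.59 at day 6, 18.8, 25.2 and 16.9 at untreated day 10 and 6.15, 3.80 and 9.05 at untreated day 17. The bFGF arrays gave 2.06, 3.71 and 8.44 at day 10 and 4.74, 10.8 and 9.20 at day 17. Its changes were -1.06 ± 0.19 (SE; adjusted p 0.0029) to day 6, 0.83 ± 0.19 (SE; adjusted p 0.0128) to day 10 and -0.93 ± 0.19 (SE; adjusted p 0.00176) from ES cells to day 17. With the mean of its probe sets no call held (adjusted p 0.0013 to 0.379, 0.00756 to 0.402 and 0.000291 to 0.552 over 14 alternatives each). The change to day 10 was lost in 7, also without day 6 pool 3, day 10 pool 2 or the 4 arrays that stood apart. Its 2 other probe sets gave 0.09 and 0.17 from ES cells to day 17, against the sign of the one used.

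Counted over the whole family, most calls lay between ES cells and untreated day 17. There 22 of the 88 KCN genes were called, against 20.2% of all genes tested: 12 were higher, against 11.7%, and 10 lower, against 8.47%. The share was thus near that of all genes. Both groups of 3 did not overlap for 29 members, against 33.6% of all genes. The 8 with the largest changes were KCNG3 (-4.16), KCNC1 (3.52), KCNJ13 (3.09), KCNK12 (-2.31), KCNK10 (2.16), KCND2 (-2.13), KCNT2 (2.04) and KCNK1 (-2.04). The median change was 0.14 over KCN genes and 0.09 over all genes. After quantile scaling 23 were called, 10 higher and 13 lower. Among the upper 60% of genes by mean signal, where fewer members were tested, the count was 14. The shares of all genes in these alternative fits are not given beside the counts. Over the same interval 7 of 12 neuronal, 3 of 9 mesenchymal and muscle and 3 of 6 endoderm markers were called higher, 4 of 7 epithelial and 6 of 7 pluripotency markers lower, and of 7 glial markers 2 higher and 1 lower. The part of these lists in the KCN genes that rose or fell was not tested.

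By the F test over the 6 groups 20 KCN genes (22.7%) were called, against 19.3% of all genes. These were 12 of the 18 with a mean over 100 and 8 of the other 70. That split rests on the same signals as the F test and was not computed for all genes. It is therefore no result about the brighter KCN genes. By class the called genes were 4 of 14 tandem pore genes, 4 of 13 inward rectifiers and 4 of 16 accessory subunits. Further calls were in 2 of 10 modifiers, 2 of 7 genes opened by calcium or sodium, and 1 each of the Shaker, Shal, Shaw and EAG-related classes. The KCNQ and Shab-type pores, the regulator and the non-coding RNAs had 0 calls.

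The steps of the course differed in number. From ES cells to day 6, 5 KCN genes were called, against 3.85% of all genes: KCNA5, KCNJ13 and KCNK10 were higher (2.19% of all genes were) and KCND2 and KCNE4 lower (1.66%). A fit with a block for pool number called 9, the others being KCNJ2 and KCNMB3, higher, and KCNJ6 and KCNS3, lower, among 1454 genes in all. Without ES pool 1, day 6 pool 1 or day 6 pool 3 the count was 3, and without the 4 arrays that stood apart it was 8.

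From day 6 to untreated day 10, 11 were called, or 12.5% against 6.37% of all genes. KCNC1, KCNE4, KCNIP1, KCNIP2, KCNJ4, KCNK10, KCNK2 and KCNT2 were higher (3.73% of all genes) and KCNA5, KCNG3 and KCNK1 lower (2.64%). This count was 5 without day 6 pool 3, 6 without day 10 pool 1 or 2, 7 without day 6 pool 1, 7 with a pseudocount of 1 or a fit of both groups alone, and 6, of them 3 higher, after quantile scaling. KCNK1, KCNG3, KCNC1, KCNA5 and KCNK2 were called in every alternative in which they were tested. Of the epithelial markers CDH1, EPCAM, ESRP1 and GRHL2 fell over this step, as KCNK1 and KCNG3 did, and 5 of 9 mesenchymal and muscle markers rose; their part in the KCN changes was not tested.

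From untreated day 10 to day 17, KCNG3 alone was called, against 1.99% of all genes; 0 were higher, against 1.45%, and 1 lower, against 0.536%. Without day 10 pool 1 or day 17 pool 2 the count was 2, through KCNN3 and KCNMB1. With the pool number as a block, since same-numbered pools deviated together here, 5 were called: KCNN3 higher and KCNE4, KCNG3, KCNK12 and KCNS3 lower, among 754 genes in all. In the fit of both groups alone the count was 0.

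**Figure D3:**
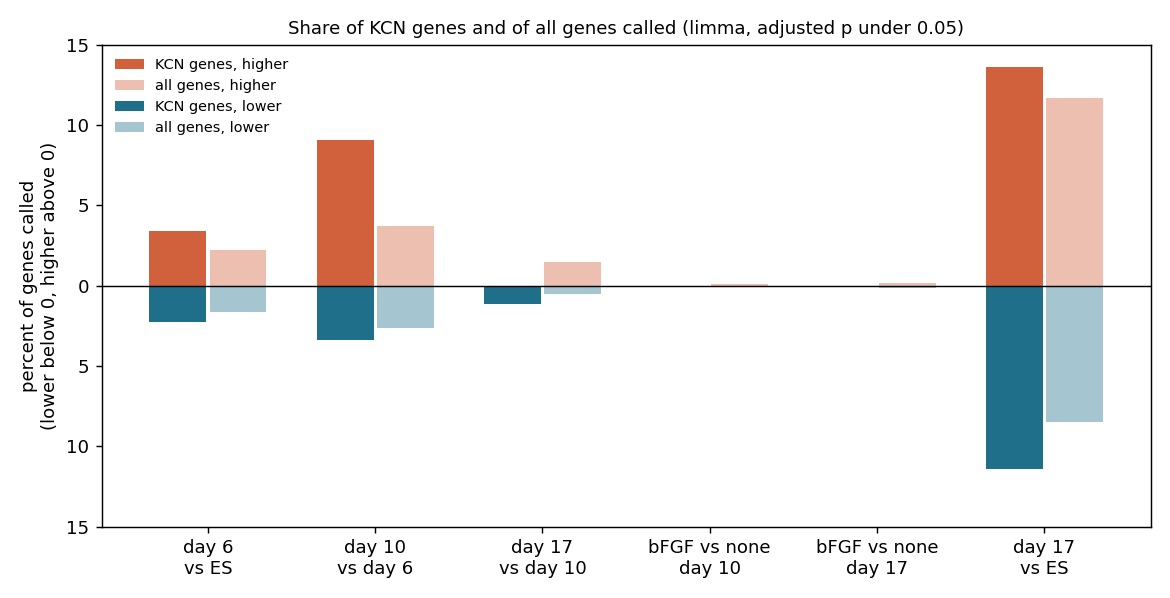
Percent of the 88 KCN genes (dark bars) and of all 19775 genes (pale bars) called in each of 6 comparisons, with genes that were higher above the zero line and genes that were lower below it. The KCN share from day 6 to untreated day 10 is 9.09% higher and 3.41% lower, beside 3.73% and 2.64% of all genes. All bars are of the fit without a block, in which no KCN gene is called with bFGF.

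Addition of bFGF gave no called KCN gene in the main fit. At day 10 the count was 0, against 0.086% of all genes, with 0.0809% of all genes higher and 0.00506% lower. By limma 7 members had an unadjusted p under 0.05. The share of all genes below that p was not computed, so no effect is read from the 7. The count of called KCN genes was also 0 in each alternative run. The groups did not overlap for 5 members, against 6.11% of all genes. The smallest p were those of KCNE4, at -0.81 ± 0.19 (unadjusted p 0.000552, adjusted p 0.26), and KCNK13, a leak gene, at 0.99 ± 0.34 (adjusted p 1). KCNK13 signals were 2.09, 10.4 and 1.51 without and 22.5, 39.1 and 14.7 with bFGF, all low and not overlapping.

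At day 17 the count was 0, against 0.339% of all genes, of which 0.182% were higher and 0.157% lower. By limma 7 members had an unadjusted p under 0.05, again with no share of all genes computed beside it. The groups did not overlap for 9 members, against 9.03% of all genes. The smallest p were those of KCNJ13, at -1.44 ± 0.33 (adjusted p 0.102), and KCNMB3, at -1.10 ± 0.28 (adjusted p 0.196), then KCNH8, at -1.07 ± 0.32 (adjusted p 0.388). In each of these genes the groups did not overlap, and the bFGF array was the lower in every pool. With the pool number as a block KCNJ13 and KCNMB3 were called lower (adjusted p 0.00672 and 0.0112), among 120 genes in all. Over the alternatives the adjusted p spanned 0.00672 to 0.586 for KCNJ13 and 0.0112 to 0.715 for KCNMB3.

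At day 17 the KCNJ13 signals with bFGF lay below those without it, with no call in the main fit. There the summed signal of 6 markers of endoderm and yolk sac, all measured, was also lower with bFGF. It was 1078 to 1763 without and 256 to 378 with bFGF, mostly from AFP and TTR, against 147 to 176 in ES cells. AFP, with means of 830.0 and 127, was called lower and the other 5 were not, TTR having means of 389 and 101. FOXA2 and APOA1 were low in both groups, at 13.9 and 17.3 without bFGF and 7.27 and 27.3 with it. SOX17 and GATA4 had means of 50.7 and 42.6 without bFGF and 23.4 and 42.1 with it. The sum thus follows AFP and TTR, not the list as a whole. Of 7 epithelial markers CDH1, the adhesion protein E-cadherin, was called lower (-1.57 ± 0.31, adjusted p 0.0399), with means of 218 and 59.99, and ESRP1 and EPCAM had an unadjusted p under 0.05 and lower means. The epithelial sum was 2261 to 3155 without and 2187 to 4138 with bFGF, mostly from KRT8 and KRT18. Of 12 neuronal markers 0 were called, and 4 had an unadjusted p under 0.05 by limma: DCX, ELAVL3 and STMN2 with lower means and NEFL with a higher one. Their sum was 15651 to 18124 without and 11630 to 15852 with bFGF. The part of these lists in the KCNJ13 values was not tested.

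The difference of the bFGF effects, day 17 minus day 10, was called for 0 KCN genes by limma, against 0% of all genes, with 7 members at an unadjusted p under 0.05. It was -1.14 ± 0.46 for KCNJ13, -1.05 ± 0.40 for KCNMB3, -1.09 ± 0.45 for KCNH8 and 0.93 ± 0.27 for KCNE4, with adjusted p of 0.891 to 1. The unadjusted 95% interval for KCNJ13, a gene picked for its bFGF change at day 17, was -2.12 to -0.16. Its difference between days was not called.

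**Figure D4:**
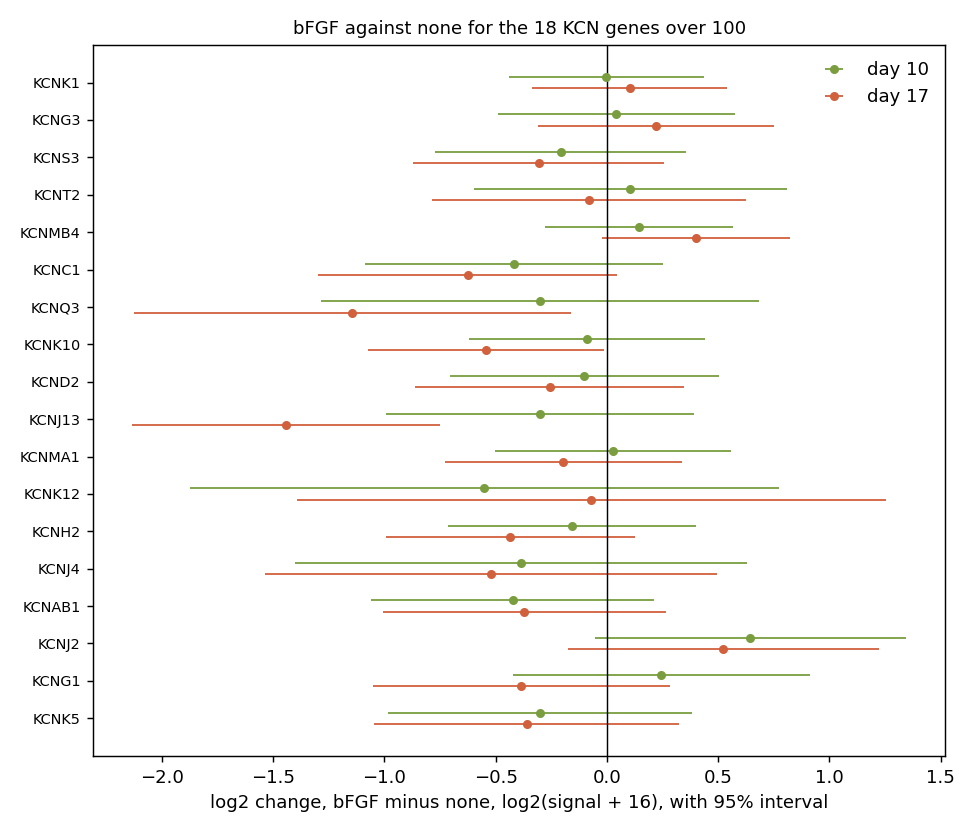
Change with bFGF in log2(signal + 16) at day 10 (green) and day 17 (orange) for the 18 KCN genes with a group mean over 100, with bars for the unadjusted 95% interval of limma. The point farthest from zero is KCNJ13 at day 17, at -1.44, and no gene shown is called at either day in the fit without a block.

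Other channel genes were counted in the same comparisons, in which 3.85% of all genes were called from ES cells to day 6, 6.37% to day 10, 1.99% to day 17 and 20.2% from ES cells to day 17. Of 12 measured voltage-gated sodium channel genes, SCN4B, an accessory subunit, was higher at day 6 than in ES cells (1.69 ± 0.33) and lower at untreated day 10 (-1.81 ± 0.33), and SCN3A, a pore of embryonic neurons, was higher at untreated day 17 than at day 10 (2.31 ± 0.31) and than in ES cells (2.50 ± 0.31). Of 17 measured calcium channel genes, the accessory subunits CACNA2D1 (-1.85 ± 0.35) and CACNA2D2 (-0.96 ± 0.26) were lower at untreated day 10 than at day 6, and CACNA2D1 was lower at day 17 than in ES cells (-1.29 ± 0.35). None of 3 measured HCN pacemaker genes was called in any comparison. Of 7 measured genes of the sodium-potassium pump and of potassium-chloride cotransport, SLC12A4, a cotransporter, was higher at day 17 than in ES cells (1.10 ± 0.37, adjusted p 0.0482). With bFGF none of these 4 lists had a call.

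The 70 members with no group mean over 100 had highest means with a median of 35.2, 48 of them under 50 and 20 under 20. The 7 Shaker-type genes reached at most 58.7. No detection calls were used, so at such signals a low value is not evidence that a gene was silent.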

How the data were processed

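The authors deposited linear intensity values, with 1 for each probe set on each array. Their scaling is read from the values: every array had a 2% trimmed mean between 150.016 and 150.026. How the authors summarised probes is not given in the sources used here. Of 54675 probe sets, 41097 named 1 gene in the platform annotation, 1801 several and 11777 none. Those ending in _x_at were dropped where another existed, and the one with the highest mean log2(signal + 16) was kept for each of 19775 genes. KCN genes had 175 probe sets, and 49 of the 88 genes had several. KCNJ12 and KCNJ18, matched only by shared probe sets, and 9 hyphenated symbols were left out. All 88 symbols are current.

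All 18 arrays entered 1 limma model (lmFit and eBayes, version 3.58.1, under R 4.3.3) that had a mean for each group and 12 residual degrees of freedom, with Benjamini-Hochberg adjustment over all genes. The test was tried on simulated data first. Since the labels do not say that the pools were separate cultures, the p-values reflect spread between pools alone, which may be technical, and precision is limited by how many arrays there are. Pool numbers come from the titles, save that of ES pool 1, which follows sample order. For 1 bFGF pool of day 10 the title says 2 and the description 1; the former was taken. Deviations of same-numbered pools from their group means correlated across genes at 0.365 to 0.621 between untreated day 10 and day 17, 0.394 to 0.668 for bFGF at day 10 and 0.317 to 0.653 at day 17, which was taken as pairing; from day 6 to day 10 the lowest was 0.0749, which was not. With ES cells it was 0.209 to 0.383 at day 6 and 0.156 to 0.248 at untreated day 17. The number of ES pool 1 is not from the labels, though its passages match those of day 6 pool 1. ES pool 2 and day 6 pool 2 are labelled with different passages. The block fits of those comparisons are therefore given only beside the main fit.

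Values of every array were to be given for genes called in any comparison or the F test, for the 10 with the highest means and for the 2 on each side of 100, and up to 8 called genes named per comparison. The members, lists and this rule were chosen with earlier results of these data known. Alternatives were quantile scaling, a pseudocount of 1 or of 64, a filter to the upper 60% of genes by mean, averaging a gene's probe sets, the pool number as a block, the compared groups alone, the fit without the 4 arrays with raised low signals, and leaving out each array. Quantile scaling with the block, and each probe set fitted on its own, were added after seeing the data.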

Additional observations from a re-analysis of the deposited data

How the results depend on the processing

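Between ES cells and day 6 the count of called KCN genes, 5 in the main fit, was 9 with the pool number as a replicate block, 8 without the 4 arrays with raised low signals and 10 with quantile scaling and the block. From day 6 to untreated day 10 it was 11, and became 7 with a pseudocount of 1, 6 with quantile scaling and 7 with the compared groups alone. With the block it was 15. From untreated day 10 to day 17 it was 1, and became 2 with a pseudocount of 64, 5 with the block, 0 with the compared groups alone and 3 with quantile scaling and the block. For bFGF at day 17 it was 0, and became 2 with the block and 2 with quantile scaling and the block. From ES cells to day 17 it was 22, and 14 among the upper 60% of genes by mean, which tests fewer members; with the block it was 26, and by the F test 30 in place of 20. The pairing by pool number changed no other count of calls by more than 1.5 times. The block also raised the calls over all genes to day 6, from day 10 to day 17 and for bFGF at day 17. Most counts under alternatives, here and above, are given without the share of all genes in the same fit. A larger or smaller count is therefore not in itself a result about KCN genes. The number over a mean of 100, 18, was 40 at a threshold of 50, 7 at 200 and 10 with the mean of probe sets. Leaving out 1 array gave 3 to 5 calls to day 6, 5 to 8 to day 10, 1 to 2 to day 17, 17 to 20 from ES cells to day 17, 19 to 24 by the F test and 0 for each bFGF comparison.

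Among named changes the difference of the bFGF effects for KCNE4 changed sign, from 0.93 in the main fit to -0.032 with the mean of its probe sets. Fitted on their own, other probe sets also went against the sign of the one used for KCNG3 from day 10 to day 17 (0.011 against -1.64), KCNE4 from ES cells to day 17 (0.09 and 0.17 against -0.93), and at least 1 probe set each of KCNK1, KCNE4 and KCNIP2 from day 6 to day 10 and of KCNIP3 from ES cells to day 17. All bFGF counts at day 10, and for the difference between days, were 0 in each alternative. Where a call was lost the cause was not tested. No detection calls were used, so how far low signals stand above background is not known here.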
